A study of Cervus nippon with 40 samples.

Results

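The miR-378 family was described here in 10 organs of Sika Deer (Cervus nippon) from the reads of every known miRNA named bta-miR-378, alone or with a letter. The rule found 4 names, bta-miR-378, bta-miR-378b, bta-miR-378c and bta-miR-378d, among 500 names listed over the 40 libraries, of which 337 were known miRNAs with cattle names and 163 were predicted ones. The study compared miRNAs between organs and between development stages, and made 1 small RNA library for each organ and stage. The organs were adrenal, antler, brain, heart, kidney, liver, lung, skeletal muscle, spleen and testes. All deer were males of the breed Shuangyang, and they were sampled as juveniles at 1 year, in adolescence at 3 years, as adults at 5 years or aged at 10 years. A library was a pool of RNA from 3 deer, so the 12 deer gave 40 libraries, and the organs of 1 stage came from the same 3 deer. The 4 libraries of an organ therefore stood for its 4 stages and not for repeats of 1 stage, and the spread between single deer cannot be seen.

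MiRNAs are short RNAs that guide a silencing complex to messenger RNAs, and members of a family resemble each other in the 5′ seed that pairs with the target. In mammals the best known miR-378 gene lies in an intron of PPARGC1B, the gene of a coactivator of mitochondrial genes, and miR-378 has been studied mostly in tissues with a high oxidative metabolism such as heart, skeletal muscle and brown fat. The letters mark related genes at other places in the genome. The names of the tables do not say which arm of the hairpin was counted. Members of such a family differ by few bases, and how a read that matched several of them was assigned is not given in the sources used here, so the low counts of the lettered members are less certain than those of bta-miR-378.

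The tables give RPM, reads per 1000000 miRNA reads of a library, from which whole reads were recovered. The miRNA reads of a library ranged from 41866 to 7759033, with a median of 744715, and were fewest in testes (41866 to 535668) and most in muscle (5452979 to 7759033). Counting error was therefore largest in testes. MiR-1, a miRNA of striated muscle, took 910959 to 928505 RPM in muscle and 151290 to 814910 RPM in heart, so that every other miRNA of these organs was measured in the share of reads it left. The organ labels were checked on marker miRNAs. MiR-124a, a neuronal miRNA, stood at 2446 to 57640 RPM in brain and at no more than 358 RPM in any other library. The muscle miRNAs miR-1, miR-133a, miR-133b and miR-133c had reads in nearly all libraries, but stood highest in muscle and heart. Their lowest values there were 151290, 8908, 368 and 158 RPM, against at most 52057, 7142, 167 and 48.3 RPM in the other organs. The cardiac miR-208a was found in heart alone (1.10 to 6.20 RPM), and miR-206 of skeletal muscle in muscle alone, at only 0.923 to 1.93 RPM. MiR-499 had no read in muscle and at most 1.32 RPM in heart. The liver marker miR-122 was not among the names listed, for liver or any other organ, so the liver label could not be checked on it. By Spearman's rho over the 124 tested miRNAs, the nearest library was of the same organ for 37 of 40 libraries. The aged spleen and the adolescence lung were nearest to each other, and the juvenile testes were nearest to the juvenile adrenal. The aged spleen library also held 52057 RPM of miR-1, against 5418, 7564 and 1782 RPM in the juvenile, adolescence and adult spleens. In testes the adolescence library held 48579 RPM of it, against 3390, 8895 and 13997 RPM in the juvenile, adult and aged ones. The fitted differences of bta-miR-378 and bta-miR-378c are given below with and without the libraries nearest to another organ. The ratios of members are given with all libraries.

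The family took 2191678 of the 52444509 miRNA reads, or 4.18%. That total holds both names of 6 pairs with nearly the same reads, such as let-7b and miR-3596 (3949538 reads each). If these are the same reads, the share is understated. Of the family's reads 95.1% were bta-miR-378, 4.42% bta-miR-378c, 0.248% bta-miR-378b and 0.191% bta-miR-378d. Bta-miR-378 and bta-miR-378c had reads in all 40 libraries, and the other two in 38 each. Bta-miR-378b had no read in the adolescence brain and the aged testes, and bta-miR-378d none in the adult and aged testes. All 4 names passed the filter of at least 10 reads in at least 4 libraries.

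Bta-miR-378 was among the most abundant miRNAs of heart, muscle and spleen. In heart it stood at 148974 RPM in the juvenile, 32238 in adolescence, 153214 in the adult and 203254 in the aged library (mean 134420 ± 72444, SD, n = 4). It ranked 2 or 3 among all miRNAs there, and the adolescence library, in which miR-1 took most reads (814910 RPM), was the low one. In muscle it stood at 38761, 25551, 24361 and 29499 RPM in the same order of stages (mean 29543 ± 6526, SD, n = 4), and ranked 2, after miR-1, in all 4 libraries.

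In spleen, an organ of blood filtering and immunity, bta-miR-378 stood at 110223, 87628, 51364 and 29539 RPM from juvenile to aged (mean 69688 ± 36114, SD, n = 4). Each spleen library was lower than the one of the stage before. In RPM the aged spleen reached the level of aged muscle, where miR-1 took 910959 RPM. With miR-1 left out, the aged spleen stood at 31161 RPM and every muscle library at 310916 RPM or more. In lung it stood at 21192, 6150, 7253 and 7663 RPM (mean 10565 ± 7114, SD, n = 4). The juvenile lung was 2.77 times the aged one, and the 3 later libraries lay close together.

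In the other 6 organs the level fell from kidney to brain. Kidney libraries held 20731 to 31384 RPM of bta-miR-378, antler 15443 to 25051, adrenal 7602 to 20132, liver 7456 to 19131, testes 1852 to 4150 and brain 2001 to 3177. The order of the means was heart, spleen, muscle, kidney, antler, adrenal, liver, lung, testes and brain. In this order all neighbours overlapped except lung and testes, so the 8 organs above testes form a series without a gap between neighbours. The same 2 organs, testes and brain, were lowest for bta-miR-378c (158.7 to 520.6 and 127.6 to 402.6 RPM).

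The order at the top turned on miR-1. In RPM of the reads other than miR-1, bta-miR-378 reached 481575, 310916, 340737 and 331301 in muscle from juvenile to aged. In heart it reached 352718, 174176, 224130 and 239486 on that scale, and in spleen 110823, 88296, 51456 and 31161. Muscle was then above heart at all 4 stages, although the ranges of both organs overlapped, and no heart library overlapped a spleen library. The level in the other 7 organs hardly moved, since miR-1 took at most 48579 RPM there.

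**Figure D1:**
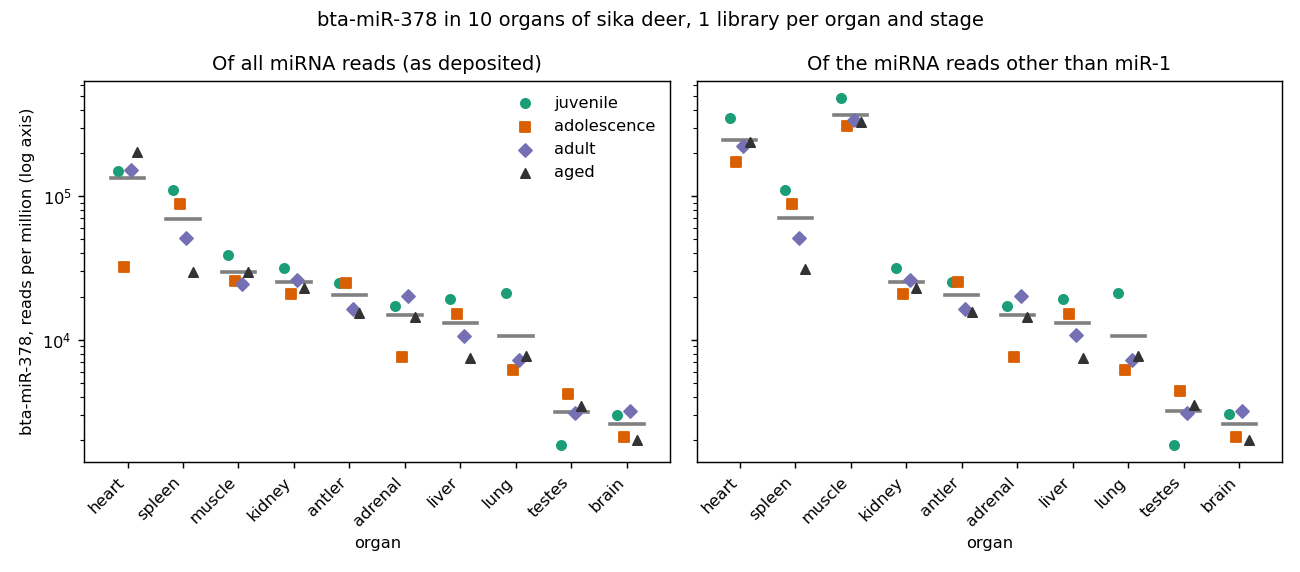
Level of bta-miR-378 in RPM on a log axis, by organ, with 1 point per stage and a grey line at the mean of the 4 libraries. The left panel counts all miRNA reads, and heart leads with a mean of 134420 RPM. The right panel leaves miR-1 out, and muscle (mean 366132) then stands above heart (mean 247627).

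Organs were compared by limma on TMM-scaled values, as log2(RPM + 1), in 1 fit with terms for organ and stage, and a miRNA was called at a Benjamini-Hochberg adjusted p under 0.01 over 124 miRNAs and an absolute log2 fold change over 1. TMM sets the bulk of miRNAs level between libraries. Its factors were 0.029 to 0.075 for muscle, 0.151 to 1.11 for heart and up to 4.76 for testes. Without TMM and with miR-1 left out, the median difference of all miRNAs from the other organs was -1.16 in muscle and -0.78 in heart. The p-values rest on the spread that the organ and stage terms leave, as 1 value per miRNA over all 40 libraries. They do not measure the spread between the libraries of 1 organ or between single deer.

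All 4 members were higher in muscle and in heart than in the mean of the other 9 organs. In muscle bta-miR-378 was higher by 5.93 ± 0.29 (log2, SE, adjusted p = 3.36e-19) and bta-miR-378c by 6.11 ± 0.30 (adjusted p = 3.36e-19), and there 24.2% of the miRNAs tested were called higher. In heart bta-miR-378 was higher by 4.13 ± 0.29 (adjusted p = 1.49e-14), bta-miR-378b by 4.67 ± 0.49, bta-miR-378c by 2.85 ± 0.30 and bta-miR-378d by 2.67 ± 0.44, against 12.1% of miRNAs called higher. On total miRNA reads, without TMM, bta-miR-378 in muscle was 0.94 above the other organs and not called (adjusted p = 0.0105), while the median difference of all miRNAs was -3.61 there, and bta-miR-378c was at 1.13 (adjusted p = 0.00613). Relative to that median it was 4.56 higher on total reads and 5.94 higher after TMM. The same relative value for heart was 4.46 on total reads and 4.60 after TMM.

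In spleen 2 of 4 members were called higher, bta-miR-378 by 1.54 ± 0.29 (adjusted p = 0.000471) and bta-miR-378c by 1.18 ± 0.30 (adjusted p = 0.00712), where 4.03% of miRNAs were called higher. Bta-miR-378b and bta-miR-378d differed by 0.89 ± 0.49 and 1.23 ± 0.44 and were not called. Without the aged spleen library the differences were 1.74 and 1.45 (adjusted p = 1.53e-05 and 0.000371). Without the adolescence spleen they were 1.25 and 0.85 and neither was called (adjusted p = 0.0207 and 0.164), and without the juvenile spleen neither was called (adjusted p = 0.0152 and 0.110). Without the adult spleen bta-miR-378c, at 1.13, was not called either (adjusted p = 0.0463). Without stage in the fit, that is, with no replicate block for the shared deer, the adjusted p of bta-miR-378c in spleen was 0.0189, and it was not called. Markers of vessels and blood cells did not move as one in spleen. Of the 3 miRNAs of the smooth muscle and vessel list 2 were tested and 1 was called higher (median 0.21). MiR-145 of smooth muscle stood at 126647 to 198873 RPM and miR-126-3p of endothelium at 0 to 2.39 RPM. MiR-143, which was not tested, stood at 9.41 to 74.2 RPM. The blood cell list had 8 miRNAs, of which 3 were tested and 1 was called higher (median 1.81). MiR-142-5p stood at 6.62 to 2849 RPM, miR-150 at 31.1 to 325 RPM and miR-486 at 2943 to 5800 RPM. MiR-486 was not highest in spleen, with a median of 4794 RPM there and 30945 RPM in heart. Of those not tested, miR-142-3p stood at 0 to 47.9 RPM and miR-451 at 0 to 4.79 RPM. The names miR-223, miR-155 and miR-144 were not listed. Their part in the level of the family was not tested. In whole organs, more cells of a type and more of the miRNA per cell cannot be told apart.

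All 4 members were lower in testes and in brain. In testes bta-miR-378 differed by -4.35 ± 0.29 (adjusted p = 1.25e-14) and bta-miR-378c by -3.66 ± 0.30 (adjusted p = 1.42e-12), and 12.9% of miRNAs were called lower. Without the juvenile testes, which were nearest to an adrenal library, the differences were -4.13 and -3.42 (adjusted p = 2.24e-14 and 3.08e-11). In brain bta-miR-378 differed by -3.01 ± 0.29 (adjusted p = 6.04e-11) and bta-miR-378c by -2.48 ± 0.30 (adjusted p = 7.41e-09), where 21% of miRNAs were called lower.

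In liver 3 of 4 members were called lower, with bta-miR-378 at -1.68 ± 0.29 (adjusted p = 2.67e-05), against 11.3% of miRNAs. In adrenal 2 of 4 were called lower, bta-miR-378 at -1.37 ± 0.29 (adjusted p = 0.000394) and bta-miR-378b at -1.92 ± 0.49 (adjusted p = 0.00259), against 6.45%. On total reads bta-miR-378 was not called in either organ, at -0.43 in liver and -0.24 in adrenal, where the median difference of all miRNAs was 1.07 and 0.95. Without the adolescence adrenal bta-miR-378 was not called there (-0.88, adjusted p = 0.0232). In lung 1 of 4 was called lower, bta-miR-378c at -1.37 ± 0.30 (adjusted p = 0.000537), and bta-miR-378 was at -0.88 ± 0.29 (adjusted p = 0.0311), by limma, against 6.45% of miRNAs. EdgeR called 1 of 4 lower (6.45% of miRNAs) and DESeq2 3 of 4 (13.7%), with bta-miR-378 at -1.23, and limma called bta-miR-378 lower with DESeq2 size factors (-1.21) and with miR-1 left out (-1.43). Without the adult lung bta-miR-378c was not called (-1.22, adjusted p = 0.0118). Without the adolescence lung, which was nearest to the aged spleen, it was at -1.22 (adjusted p = 0.00926), and bta-miR-378 at -0.70 (adjusted p = 0.176).

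Antler listed 31 known names that no other organ did, so its reads may have been named differently. Whether this touched the family was not tested. In antler, the bony organ that deer regrow each year, no member was called by limma, edgeR or DESeq2, with bta-miR-378 at 0.22 ± 0.29 (adjusted p = 0.537) and 15.3% of miRNAs called higher. At an unadjusted p under 0.05 there were 0 of 4 members by limma and by edgeR and 3 by DESeq2. In kidney no member was called by any of these tools either, with bta-miR-378 at -0.53 ± 0.29 (adjusted p = 0.251), against 6.45% of miRNAs called lower, and 0 of 4 members were under an unadjusted p of 0.05 by limma and edgeR and 1 by DESeq2.

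**Figure D2:**
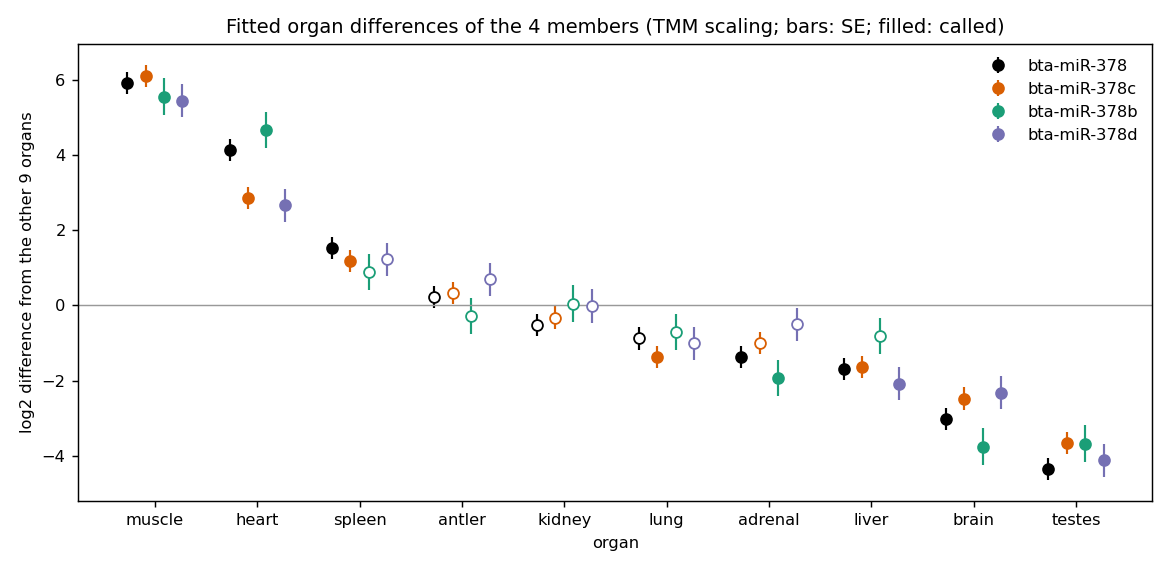
Log2 difference of each organ from the mean of the other 9 organs for the 4 members, from the limma fit after TMM scaling, with bars for the SE and filled points for called differences. Muscle and heart lie above and brain and testes below 0 for all 4 members. In heart bta-miR-378 (4.13) and bta-miR-378b (4.67) stand above bta-miR-378c (2.85) and bta-miR-378d (2.67). On total miRNA reads, the difference of bta-miR-378 is not called in muscle, liver and adrenal and turns above 0 in kidney.

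Among heart, muscle, spleen and lung, the 6 pairs were compared in the same fit. After TMM heart and muscle were both above spleen and lung, while on total reads muscle was below spleen. Heart was above lung by 4.51 ± 0.39 for bta-miR-378 (adjusted p = 4.84e-12), and all 4 members were called, against 9.68% of miRNAs. Muscle was above lung by 6.12 ± 0.39 (adjusted p = 5.03e-16), and 4 of 4 members were called, against 15.3%. Heart was above spleen by 2.33 ± 0.39 (adjusted p = 1.43e-05), with 3 of 4 members called, against 11.3%. For bta-miR-378c this difference was 1.51 ± 0.40 (adjusted p = 0.00361), and with no replicate block the adjusted p was 0.0120, and it was not called. Without the aged heart it was 1.37 (adjusted p = 0.0188). Without TMM, on total reads, heart was above spleen by 0.84 for bta-miR-378 (adjusted p = 0.121) and by 0.016 for bta-miR-378c.

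Muscle was above spleen by 3.95 ± 0.39 for bta-miR-378 after TMM (adjusted p = 1.25e-10), with 4 of 4 members called, against 20.2% of miRNAs, and on total reads it was below spleen, at -1.09 (adjusted p = 0.0297). Relative to the median of all miRNAs it was above spleen on both scales, by 3.95 and 2.10. Spleen was above lung by 2.17 ± 0.39 (adjusted p = 9.96e-05), with 2 of 4 members called, against 3.23%, and by 2.75 on total reads. With the juvenile libraries of all organs left out it was 2.22 (adjusted p = 0.0101), and with the adolescence ones left out 1.68 (adjusted p = 0.0112), neither of them called.

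Without the aged spleen bta-miR-378 in heart was above spleen by 2.32, in muscle above spleen by 3.29 and in spleen above lung by 2.41, and bta-miR-378c by 1.43, 3.71 and 2.60, all of them called. Without the adolescence lung bta-miR-378 in spleen was above lung by 1.85, in heart by 4.36 and in muscle by 5.96, and these and the same differences of bta-miR-378c were all called.

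Heart and muscle could not be ordered. After TMM the difference of heart from muscle was -1.62 ± 0.39 for bta-miR-378 (adjusted p = 0.00241), with 3 of 4 members called lower, against 16.1% of miRNAs. On total reads it was 1.93 higher in heart (adjusted p = 0.000531), and with miR-1 left out it was at -0.59 (adjusted p = 0.287). The median of all miRNAs moved along, at -0.61 after TMM, 1.94 on total reads and 0.22 without miR-1. Relative to it bta-miR-378 in heart was -1.01, -0.01 and -0.81. For bta-miR-378c the difference was -2.93 ± 0.40 after TMM (adjusted p = 3.99e-07) and 0.62 on total reads (adjusted p = 0.302). After TMM, bta-miR-378 was not called without the adult heart (-1.43, adjusted p = 0.0149) or the adult muscle (-1.44, adjusted p = 0.0160).

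The ratio of members within a library does not depend on the scaling. Bta-miR-378c had 1.95, 2.62, 3.05 and 3.13 reads for 100 reads of bta-miR-378 in heart from juvenile to aged. The widest 95% Wilson interval there, in adolescence, ran from 2.51 to 2.74 and covers counting error only. Muscle, the other striated muscle, had 5.64, 6.39, 6.31 and 8.16. No muscle library came near the heart range.

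Lung had 3.71, 4.90, 2.89 and 6.59 reads of bta-miR-378c for 100 of bta-miR-378, and spleen 5.31, 5.35, 3.80 and 4.43. The adult lung was the only library of another organ inside the heart range. The other organs had means of 6.13 (liver), 6.29 (antler), 6.76 (kidney), 7.49 (adrenal), 8.54 (brain) and 9.12 (testes), with a lowest library of 5.06 in kidney. The highest library was the juvenile brain at 13.4. In testes, where bta-miR-378c rested on 10 to 85 reads, the interval of the adolescence library ran from 8.84 to 17.8.

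The heart ratio was lower than that of the other 9 organs by 1.27 on the log2 scale (difference -1.27, fold 0.414, exact permutation test of the organ label within stages, two-sided, p = 0.0002, adjusted p = 0.002 over 10 organs), and lowest of all organs at 3 of 4 stages. Over the leave-one-stage-out and unblocked tests its difference ran from -1.43 to -1.11 with adjusted exact p between 0.000328 and 0.02. In testes the ratio was higher by 0.67 (exact p = 0.0294, adjusted p = 0.147), in brain by 0.53 (adjusted exact p = 0.282), and in lung it differed by -0.49 (adjusted exact p = 0.282). None of these nor the other 6 organs passed the limit of 0.05.

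Bta-miR-378d was low beside bta-miR-378 in heart too. It had 0.0969 to 0.151 reads for 100 in heart, 0.209 to 0.231 in muscle, 0.193 to 0.291 in spleen and 0.162 to 0.450 in lung. No library outside heart with a read of it fell in the heart range. Bta-miR-378b did not follow, with 0.248 to 0.445 for 100 in heart, 0.0788 to 0.385 in muscle and 0.0864 to 0.238 in spleen. Set against bta-miR-378c, heart had 8.12 to 17.5 reads of bta-miR-378b for 100 (13.3 over the pooled reads), and the other organs 2.15 to 6.74 over their pooled reads, although the juvenile (8.88) and adult (12.4) lung and the adolescence (9.44) and adult (8.41) liver fell in the heart range. In adolescence heart these values rested on 286 reads of bta-miR-378b and 80 of bta-miR-378d, and outside heart, muscle and spleen on at most 90 reads a library. These ratios were not tested.

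**Figure D3:**
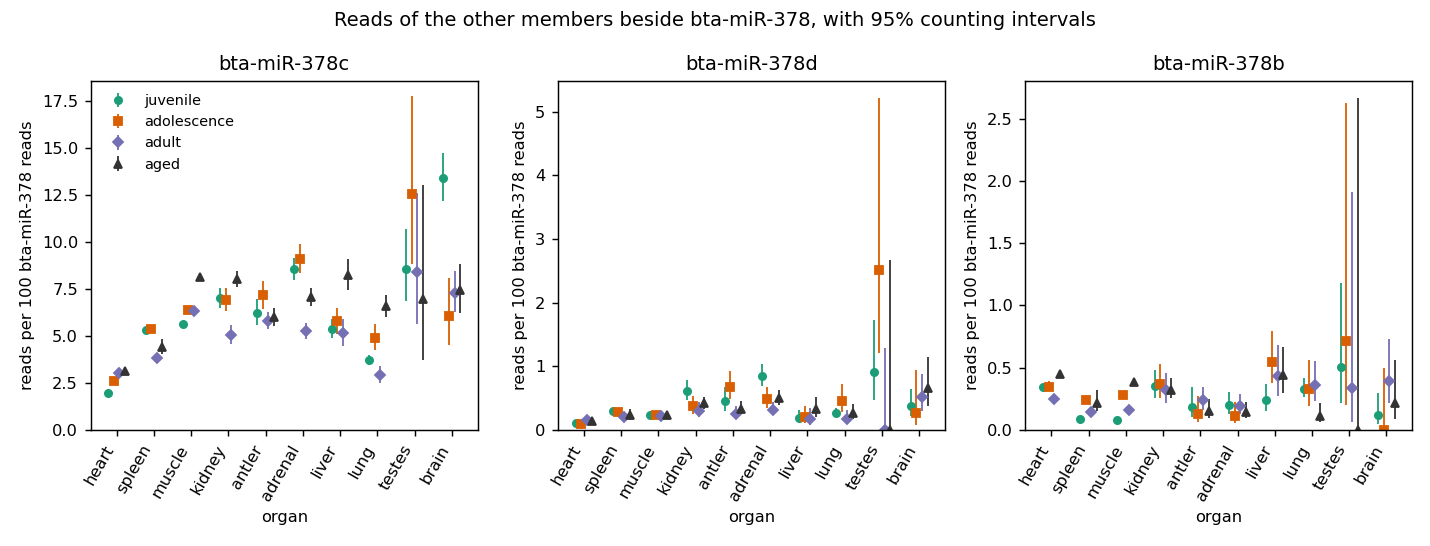
Reads of bta-miR-378c, bta-miR-378d and bta-miR-378b for 100 reads of bta-miR-378, by organ, with 1 point per stage and bars for the 95% Wilson interval (the vertical axes differ between panels). Heart lies lowest for bta-miR-378c (1.95 to 3.13) and, among libraries with reads, for bta-miR-378d, but not for bta-miR-378b. Testes have the widest intervals.

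Between stages the level of bta-miR-378 was lower in the aged than in the juvenile library in 8 of 10 organs by RPM, with heart and testes higher, and in 9 of 10 with miR-1 left out. The fitted difference of aged from juvenile was -0.77 ± 0.25 for bta-miR-378 (log2, limma, adjusted p = 0.0348), -0.66 ± 0.25 for bta-miR-378c (adjusted p = 0.0587) and -1.11 ± 0.38 for bta-miR-378d (adjusted p = 0.0395). None of the 4 members was called by limma, edgeR or DESeq2, 3 had an unadjusted p under 0.05 by each tool, and bta-miR-378 by DESeq2 missed the call on size alone (-0.72, adjusted p = 0.00111), while 3.23% of miRNAs were called lower. On total reads bta-miR-378 was at -0.58 (adjusted p = 0.193). In the test of all 4 stages at once, 0 of 4 members and 4.84% of miRNAs were called by limma, with an adjusted p of 0.102 for bta-miR-378 and 0.0841 for bta-miR-378c. There 3 of 4 members had an unadjusted p under 0.05, edgeR called 0 (8.06% of all miRNAs), and the likelihood ratio test of DESeq2 called 3 (25.8% of all miRNAs), with an adjusted p of 0.00627 for bta-miR-378 and for bta-miR-378c. Since 1 group of 3 deer supplied all organs of a stage, stage and deer cannot be told apart, and the p-values take the 10 organs as if they came from separate animals.

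The course over stages looked different in shape between heart, muscle, spleen and lung, but with 1 library per organ and stage the shape was not tested. The slopes given below cover only a steady change per stage, and none of them was called. In heart bta-miR-378 dropped from 148974 to 32238 RPM between juvenile and adolescence, 0.22 times, and was 4.75 times higher in the adult library. MiR-1 moved the other way, from 577640 to 814910 and then 316406 RPM, and with miR-1 left out the same steps were 0.49 and 1.29 times. In spleen the aged library held 0.27 times the juvenile level, and 0.28 times without miR-1. That library was the one nearest to a lung library, and up to the adult stage bta-miR-378 in spleen went from 110223 to 51364 RPM. Muscle stayed within 1.59 times over the 4 stages, and lung within 3.45 times.

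Bta-miR-378c followed the same course in spleen, with 5858, 4684, 1954 and 1307 RPM from juvenile to aged. In heart it stood at 2907, 846, 4674 and 6370 RPM, in muscle at 2186, 1633, 1537 and 2407, and in lung at 786, 301, 210 and 505. Spleen was the only one of these 4 organs where both members were lower at every later stage.

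The extra change per stage in 1 organ against the other 9 was -0.29 ± 0.26 in spleen for bta-miR-378 (log2 per stage, adjusted p = 0.566) and -0.43 ± 0.26 for bta-miR-378c (adjusted p = 0.290), and without the aged spleen -0.11 and -0.25 (adjusted p = 0.997 for both). In heart the values were -0.06 ± 0.26 and 0.19 ± 0.27, in muscle 0.01 ± 0.27 and 0.18 ± 0.27, and in lung -0.12 ± 0.27 and 0.07 ± 0.27. Limma called 0 of 4 members in each of these 4 organs, with 0 of 4 under an unadjusted p of 0.05, and edgeR and DESeq2 called 0 as well. Of all miRNAs, limma called 0.806% in heart and 0% in muscle, spleen and lung (with 6, 11, 25 and 1 at an unadjusted p under 0.05). There DESeq2 called 1, 0, 11 and 0 miRNAs, and edgeR 0, 0, 5 and 0.

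**Figure D4:**
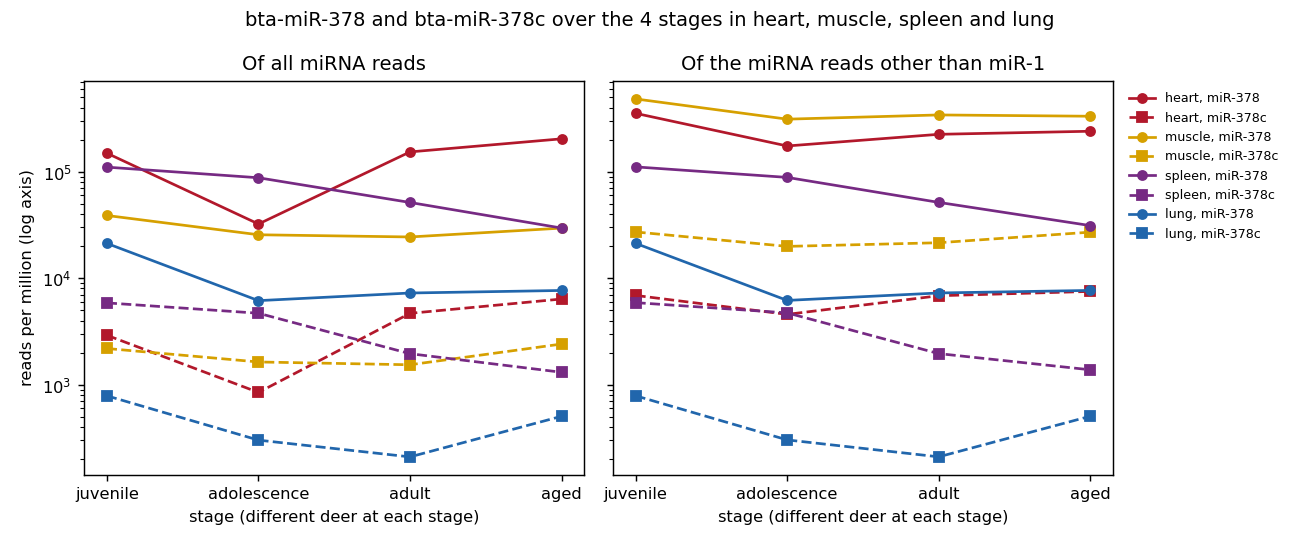
Level of bta-miR-378 (solid lines, circles) and bta-miR-378c (dashed lines, squares) in RPM on a log axis at the 4 stages in heart, muscle, spleen and lung. The left panel counts all miRNA reads and the right panel leaves miR-1 out. Spleen is lower at each later stage in both panels, and the dip of heart in adolescence (32238 RPM) is smaller without miR-1.

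Stages within an organ were also compared 2 libraries at a time with the random sampling model of DEGseq, the package that the study names without stating which of its methods was run, calling at q under 0.01 and an absolute log2 fold change over 1. These calls compare libraries, not stages. Of the 60 pairs, bta-miR-378 was called in 14, in 10 of them with the older library lower, bta-miR-378c in 15 (10 lower in the older), bta-miR-378b in 16 (8 lower), and bta-miR-378d in 20 of 59 (17 lower), against 18.8% of all miRNA tests called in either direction. For bta-miR-378, heart had 3 of 6 pairs called (25.1% of all miRNA tests), all of them with the adolescence library. Spleen had 3 of 6, all lower in the older library (21.1%), lung 3 of 6, each against the juvenile library (20%), and muscle none (12.7%), nor did muscle by the exact binomial test on the same reads. All the muscle pairs of bta-miR-378 had a q under the limit and missed the call on size, the farthest from 0 being -0.67 on the log2 scale.

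The ratio of bta-miR-378c to bta-miR-378 had a geometric mean over organs of 5.89, 6.22, 5.03 and 6.36 for 100 from juvenile to aged. It was higher in the aged than in the adult library in 9 of 10 organs, by 0.34 on the log2 scale (exact paired permutation test, two-sided, p = 0.0254, adjusted p = 0.0703 over 4 comparisons). From adolescence to adult it was lower in 8 of 10 organs, with a difference of -0.31 (exact p = 0.0352, adjusted p = 0.0703). Neither passed the limit of 0.05. Each of the 10 organs was then left out in turn, and without brain both passed (-0.37 and 0.37, adjusted exact p = 0.0391 and 0.0417). From juvenile to adolescence it was higher in 8 of 10 organs, by 0.079 (adjusted exact p = 0.654), and without brain, where it was lower, by 0.22 (adjusted exact p = 0.0391). Juvenile and aged differed by 0.11 (exact p = 0.533, adjusted p = 0.654).

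The miRNAs whose level was most like that of bta-miR-378 were first its own family. Over the 40 libraries, which share organs and deer, Pearson's r of log2(RPM + 1) after TMM was 0.98 for bta-miR-378c, 0.94 for bta-miR-378b and 0.93 for bta-miR-378d. Around the organ means r was 0.82, 0.35 and 0.33, so most of the likeness of the 2 sparse members lay between organs. Of the 120 other tested miRNAs the 5 most alike were miR-133c and miR-1 (both 0.83), miR-133a (0.81), miR-208b (0.78) and miR-133b (0.74), which are on the muscle list. MiR-486, of the blood cell list, came next at nearly the same r (0.741 against 0.742 for miR-133b). It had 0.60 around the organ means and 0.38 on total reads, and is named here after its value was seen. Its median was highest in heart (30945 RPM, against 4794 RPM in spleen), while miR-451 of the same list stood at no more than 4.79 RPM in any library. For the 5, r around the organ means lay between -0.19 and 0.11, and on total reads between 0.37 and 0.58. MiR-208b had reads in heart and muscle alone and passed the filter only through them. Its high r followed from that and is no separate result.

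The 5 least alike were miR-374b (-0.53), miR-339b (-0.51), miR-339a (-0.41), miR-1246 (-0.41) and miR-450b (-0.39). MiR-374b stood at 1.08 to 8.96 RPM in muscle and 465 to 1212 RPM in adrenal. MiR-450b had no read in heart, muscle, liver and lung.

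The muscle list had 8 miRNAs, of which 5 were tested. MiR-208b had no read outside heart and muscle, so it passed the filter only through these organs and its difference there was fixed by that. The other 4, miR-1, miR-133a, miR-133b and miR-133c, were called higher in heart (differences of 6.55 to 7.69, log2, against 12.1% of all miRNAs) and in muscle (8.85 to 12.1, against 24.2%). In spleen against the other 9 organs, which include heart and muscle, 0 of 5 were called by limma, with a median of -0.14. In spleen against lung 1 of 5 was called higher, miR-133a at 2.91 (adjusted p = 0.00169), against 3.23% of all miRNAs. The median of the 5, which include miR-208b without a read in either organ, was 2.24, beside 2.17 for bta-miR-378. The part of muscle miRNAs in the spleen to lung difference of the family was not tested. The summed level of the list was 407329 to 846046 RPM in heart, 928948 to 948933 in muscle, 7538 to 53982 in spleen and 1229 to 5095 in lung. Over the spleen libraries bta-miR-378 stood at 29539 to 110223 RPM and miR-1 at 1782 to 52057 RPM, highest in the aged one. MiR-208a, miR-208b, miR-206 and miR-499 had no read in spleen, but they were sparse in muscle too. There miR-206 stood at 0.923 to 1.93 RPM and miR-208b at 0.644 to 3.32 RPM, and miR-208a and miR-499 had no read.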

How the data were processed

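Small RNA libraries of 10 organs at 4 stages were analysed, each from the pooled RNA of 3 deer. Before deposit the authors trimmed adapters, kept reads of miRNA length, took out reads of other RNA classes and repeats, named miRNAs after cattle miRBase entries, and scaled the counts of each library to RPM of its miRNA reads. The submitters' processing notes name CASAVA, bcl2fastq 1.8.4 and Bowtie. All 7982 values gave whole reads within 0.02 reads. Reads that antler listed under miR-148c were counted under miR-2957. Of the 337 known names, 31 listed in antler alone were dropped, and the 124 that reached 10 reads in 4 or more libraries were tested.

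For pairs of libraries DEGseq's random sampling model was rewritten in Python; the study names DEGseq but not which of its methods it ran. Organs and stages were fitted with limma 3.58.1 (R 4.3.3) on log2(RPM + 1) with TMM factors of edgeR 4.0.16 and Benjamini-Hochberg adjustment, with stage as the replicate block. The libraries of a stage share deer. Deviations from organ means had a median r of 0.125 between organs of the same stage (180 pairs) and -0.0412 between stages (540 pairs). Since each organ was centred on its own mean, the second value is tied to the first. Deer and stage cannot be told apart in them. Ratios were compared by exact permutation tests (scipy 1.17.1). EdgeR's quasi-likelihood test and DESeq2 1.42.0 on the recovered reads, other scalings, filters and pseudocounts, and leaving out libraries, stages and organs were the alternatives. The code was tested on simulated data. In the simulation of the fits miR-1 was set to the median level, so they were not tested where miR-1 takes most reads. Named were the family, the 5 miRNAs most and the 5 least correlated with bta-miR-378, and marker lists. The members and lists were chosen with earlier results of these data known.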

Additional observations from a re-analysis of the deposited data

Results flagged for a closer look

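In 3 of 50 groups of 4 libraries, 1 library stood apart by Dixon's test, which chance does in about 1 of 20 groups. Bta-miR-378 was at 21192 RPM in the juvenile lung, against 6150 to 7663 RPM at the later stages. Bta-miR-378d was at 191 RPM in the juvenile kidney, against 75.9 to 94.6 RPM, and at 104 RPM in the adolescence testes, against 0 to 16.8 RPM, where it rested on 7 reads.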

How the results depend on the processing

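On total miRNA reads in place of TMM, values of organs against the other 9 were, for bta-miR-378, -0.24 in adrenal, -0.43 in liver and 0.94 in muscle, none called, and 0.70 in kidney; for bta-miR-378c they were 0.12 in adrenal, 0.91 in kidney and -0.39 in liver. Heart against muscle was 1.93, 2.72, 0.62 and 1.03 for bta-miR-378, b, c and d, muscle against spleen -1.09, -0.80, -0.60 and -1.22, and heart against spleen 0.84, 0.016 and -0.19 for bta-miR-378, c and d. Bta-miR-378b in liver was 0.44, bta-miR-378d was 0.68 in adrenal and 1.28 in kidney, and the slopes were 0.56 (bta-miR-378, heart) and -0.11 (bta-miR-378c, lung).

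With miR-1 taken out, bta-miR-378 was -0.77 in adrenal, -0.18 in antler, 0.17 in kidney, -0.96 in liver, -1.43 in lung (called) and -0.59 in heart against muscle, with a slope of 0.077 in heart. Bta-miR-378c was -0.074 in antler, 0.38 in kidney, -0.92 in liver and 1.11 in heart against spleen, with a slope of -0.051 in lung. Bta-miR-378b was 0.22 in heart against muscle, and bta-miR-378d 0.16 in adrenal and 0.76 in kidney. With DESeq2 size factors, bta-miR-378 was -1.05 in heart against muscle, -1.21 in lung (called) and 0.061 for the heart slope, bta-miR-378b 0.031 in antler, bta-miR-378c -1.09 in adrenal (called) and 0.99 in spleen (not called), and bta-miR-378d 0.028 in kidney.

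With DESeq2 as the test, bta-miR-378 was -1.23 in lung (called), 0.063 for the heart slope and 0.72 for the range over stages (called), bta-miR-378b -0.028 in kidney, and bta-miR-378c -1.12 in adrenal and 0.68 over stages (both called). EdgeR gave -0.065 for bta-miR-378b in kidney. A pseudocount of 10 gave -0.33 there and called bta-miR-378c in adrenal (-1.01). With no minimum of reads, bta-miR-378 was -1.27 in adrenal, -0.78 in heart against muscle and -0.43 for the muscle slope; bta-miR-378b was 0.029 in heart against muscle and -0.021 in kidney; bta-miR-378c was 1.19 in heart against spleen, -1.20 in lung, and -0.10 and -0.26 for the lung and muscle slopes. With near-identical names counted once, bta-miR-378 was -0.72 in heart against muscle and 0.13 for the heart slope, bta-miR-378b 0.088 in heart against muscle, bta-miR-378c -0.17 for the lung slope and bta-miR-378d 0.019 in kidney.

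With 1 organ left out, the heart slope of bta-miR-378 was 0.12 (without adrenal), 0.26 (antler), 0.23 (brain), 0.037 (muscle), 0.20 (spleen) and 0.020 (testes), its muscle slope -0.013 (adrenal), -0.0074 (brain), -0.0057 (lung) and -0.021 (spleen), and the lung slope of bta-miR-378c -0.0024 (adrenal), -0.073 (brain), -0.038 (liver), -0.028 (spleen) and -0.016 (testes). The stage differences of the ratio passed the limit without brain, at 0.22 (adolescence against juvenile), -0.37 (adult against adolescence) and 0.37 (aged against adult, 0.41 without testes). The cause was not tested for any of these.

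With 1 library or 1 stage left out, values ran from -1.47 to -0.88 for bta-miR-378 in adrenal, 1.21 to 1.82 in spleen, -1.76 to -0.65 in heart against muscle and 1.68 to 2.51 in spleen against lung. Its slopes ran from -0.53 to 0.33 in heart, -0.54 to 0.22 in lung and -0.34 to 0.45 in muscle. For bta-miR-378c they ran from -1.65 to -1.17 in lung, 0.80 to 1.54 in spleen, -3.13 to -1.89 in heart against muscle, 1.19 to 2.35 in heart against spleen and 1.79 to 2.85 in spleen against lung, with slopes of -0.041 to 0.46 (heart), -0.61 to 0.43 (lung) and -0.16 to 0.67 (muscle). Bta-miR-378b ran from -0.52 to 0.013 in antler, -1.35 to 0.11 in heart against muscle and -0.11 to 0.23 in kidney, bta-miR-378d from -0.77 to 0.10 in adrenal and -0.21 to 0.37 in kidney, and the ratio in liver from -0.077 to 0.11.

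Without stage as the replicate block, the log2 values were the same, and bta-miR-378c lost its call in spleen (1.18, adjusted p by limma = 0.0189) and in heart against spleen (1.51, adjusted p by limma = 0.0120); no other call of bta-miR-378 or bta-miR-378c, and none of the ratio, changed.

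The counts of all miRNAs called moved by over 1.5 times as follows. On total reads they were 38 in adrenal (17 after TMM), 66 in heart (33), 44 in kidney (20), 49 in liver (26), 109 in muscle (46), 13 in spleen (6), 51 in testes (22), 38 in heart against lung (22), 59 in heart against muscle (24), 48 in heart against spleen (22), 87 in muscle against lung (29) and 85 in muscle against spleen (36). DESeq2 called 26 in adrenal, 40 in liver, 15 in spleen, 15 in spleen against lung (7 by limma), 15 for aged against juvenile (7), 32 for stage (6) and 11 for the spleen slope (0), and edgeR 10 in spleen, 12 in spleen against lung, 10 for stage and 5 for the spleen slope. For heart against muscle the count was 14 with DESeq2 size factors and with near-identical names counted once, 11 with no minimum and 13 without miR-1. Depth limited the lettered members most in testes, where bta-miR-378b and bta-miR-378d had at most 9 reads a library.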
